A study of Mus musculus with 198 samples.

Results

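Cytochromes P450 are haem enzymes that insert an oxygen atom into drugs, steroids, fatty acids and other fat-soluble molecules, and the genes described here are those of families 1 to 4. A gene was a member when its name was Cyp followed by a family number from 1 to 4, a subfamily letter and a gene number, with nothing after it, and when its counts summed to 10 or more over all libraries. This rule took 73 of 56332 features. Of the members, 3 belong to family 1, 47 to family 2, 7 to family 3 and 16 to family 4. Another 3 names fitted the pattern but held too few counts, namely Cyp2c66 with 2, Cyp4f40 with 3 and Cyp2d34 with 7, and the members nearest to the limit were Cyp4x1 with 10 counts and Cyp2c65 with 11. Names that carry a further letter, such as Cyp3a41a, were not members.

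Families 1 to 3 hold most of the enzymes that handle foreign compounds, and they also hydroxylate steroid hormones. Family 4 enzymes and several family 2 enzymes (the 2C, 2J and 2U groups) oxidise fatty acids such as arachidonic acid. Most of these genes lie in tandem clusters of close copies, and in the rodent liver many follow the sex-dependent rhythm of growth hormone release, while others answer to foreign chemicals through the receptors AHR, PXR and CAR or to fatty acids through PPARalpha.

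RNA-seq counts came from 22 C57BL/6 mice, whose age the labels do not give, that had received a control or an anti-PAPP-A antibody for 17 weeks. The control arm held 6 females and 6 males and the anti-PAPP-A arm 5 females and 5 males, and each mouse gave liver, kidney, lung, heart, spleen, bone marrow, skin, gonadal fat and subscapular (subcutaneous) fat, 198 libraries in all. PAPP-A is a protease that releases insulin-like growth factor from its binding proteins, and the design asks which genes the antibody changes in each tissue. Whole tissue was used, so that fewer cells of a type and less RNA per cell cannot be told apart.

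Levels are given as CPM, a gene's count in each 1000000 counts outside 9 abundant, mostly ribosomal features, and levels of different genes are compared only as CPM per kb of exon. Outside these features the libraries held between 33377 and 4694597 counts (median 1099966.5). Tissue markers more than 2 log2 units under their tissue's median, or fewer than 1000 genes with 10 counts, put 5 libraries in doubt. They were lung of control male 68 and heart of control female 22 and anti-PAPP-A male 56. The others were gonadal fat of anti-PAPP-A male 58 and skin of anti-PAPP-A female 36. Counts of members by level, means per kb and the calls of each tissue contrast include these libraries. Some results that rest on them are also given without them.

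The members are spread over 9 chromosomes, with 15 each on chromosomes 4 and 7, 14 on chromosome 19, 8 each on 5 and 17 and 7 on 15. To see how far copies could exchange reads, each member's longest coding transcript (GENCODE vM21) was read in windows of 50 bases. Over the 72 members with a transcript, a median of 7.2% of windows also occurred in another gene. In 11 members no window was shared, among them Cyp1b1, Cyp2f2, Cyp2s1, Cyp2r1, Cyp3a13 and Cyp4f39. The share was 72.1% in Cyp2c40, 54.8% in Cyp2c69 and 52.8% in Cyp2c67, which lie with Cyp2c68 in 1 cluster on chromosome 19, and 40.8% and 38.0% in Cyp2a5 and Cyp2a4. Counts of such pairs are uncertain as single genes, since Salmon has to divide shared reads between them.

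Liver held the most P450 RNA. The 73 genes together made up a median of 1.63% of the counts outside the abundant features in liver (1.09% to 1.83% over 22 libraries), 0.614% in kidney and 0.305% in lung. In gonadal fat the median was 0.079%, in skin 0.077%, in subscapular fat 0.04%, in spleen 0.03%, in bone marrow 0.02% and in heart 0.014%. In the control mice 55 members reached a mean of 1 CPM in liver, 51 in lung, 38 in skin, 37 in gonadal fat, 35 in kidney, 30 in subscapular fat, 21 in heart, 17 in spleen and 13 in bone marrow. At 100 CPM or more there were 30 in liver, 11 in kidney and 5 in lung. The highest mean was in liver for 43 members, in skin for 11 and in kidney for 9. For 26 of those 43, including every member of the 2C subfamily apart from Cyp2c44 and Cyp2c65, liver held over 90% of the summed tissue means.

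**Figure D1:**
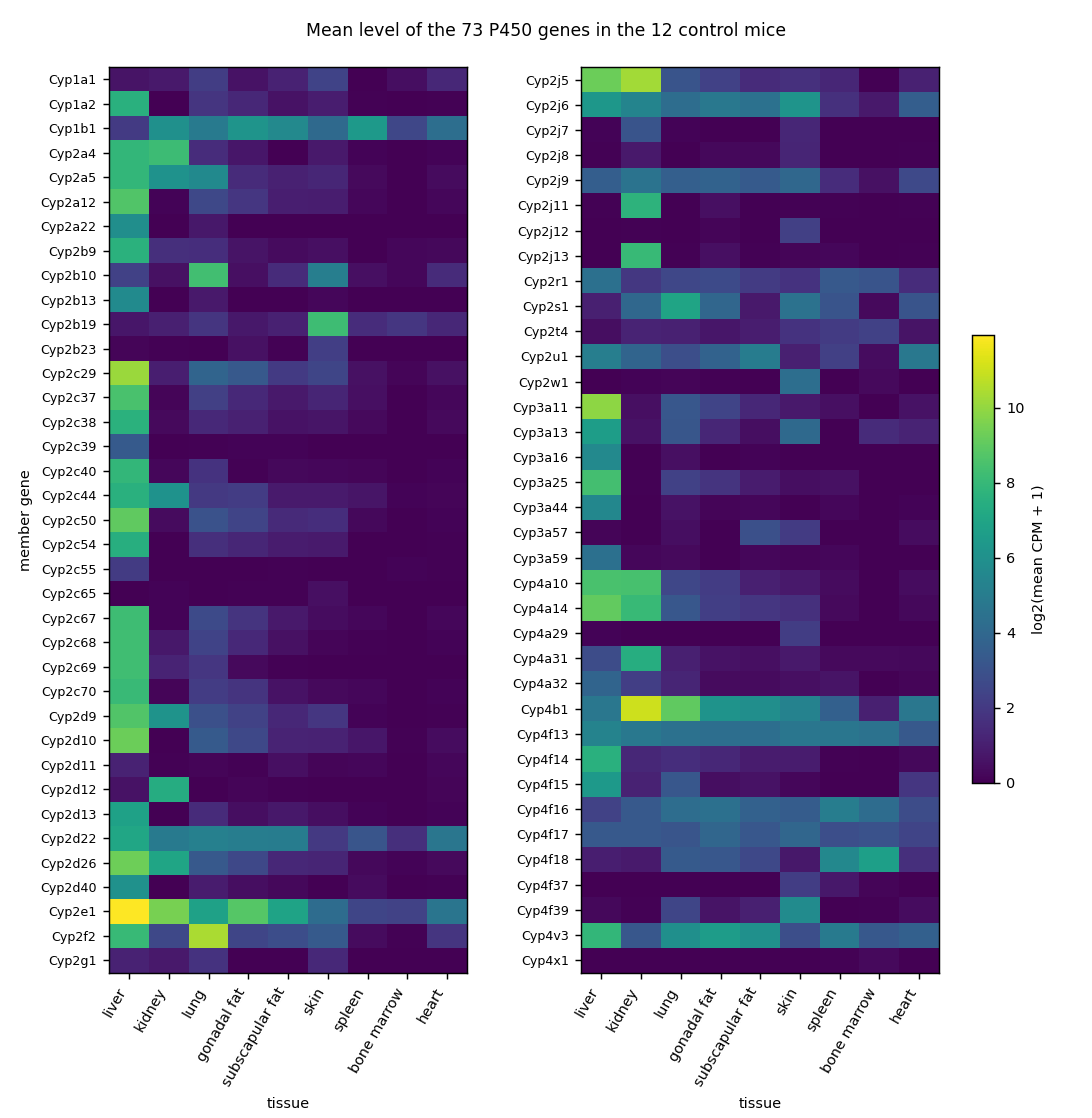
Mean level of each of the 73 members (rows, in 2 columns of genes) in the 9 tissues of the 12 control mice, as log2(mean CPM + 1) on the colour scale. Most rows are brightest in liver, 9 are brightest in kidney, and Cyp2b19 and Cyp2f2 are brightest in skin and lung.

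Per kb of exon, the leading liver member was Cyp2e1, which oxidises ethanol and other small solvents, at 1801 ± 668 CPM per kb (SD, n = 12 control mice). Cyp2d10 followed at 370.4 ± 44.4, the arachidonic acid epoxygenase gene Cyp2c29 at 365 ± 112, Cyp2d26 at 348 ± 23.1 and the epoxygenase gene Cyp2j5 at 260.3 ± 51.4. The first 3 of the 4 genes after Cyp2e1 had overlapping SDs. The SD of Cyp2j5 overlapped with that of Cyp2c29 but not with those of Cyp2d10 and Cyp2d26. Cyp2e1 ranged from 1982 to 5749 CPM over the control livers with a median of 3905.

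Kidney was led by another set. Cyp4b1, which bioactivates several protoxins, stood at 920.5 ± 785 CPM per kb (SD, n = 12), Cyp2j5 at 529 ± 197, Cyp2e1 at 325 ± 298, the fatty acid omega-hydroxylase gene Cyp4a10 at 168 ± 69.7 and the steroid 15alpha-hydroxylase gene Cyp2a4 at 167 ± 138. The SD of Cyp4b1, Cyp2e1 and Cyp2a4 came near to their means, and all 3 genes differ between the sexes in kidney. Cyp2d12, Cyp2j11 and Cyp2j13 were kidney genes, with 99.5%, 99.7% and 99.7% of their summed tissue means there, and Cyp4a31 followed with 94.9%.

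In lung the first gene was Cyp2f2, the naphthalene-bioactivating P450 of the club cells that line the airways, at 674 ± 293 CPM per kb (SD, n = 12). Its control values ran from 11.4 to 1965 CPM with a median of 1647. The lowest was the library labelled lung of male 68, in which the 3 club cell markers summed to 4.3 CPM, and without it the range was 561.5 to 1965 CPM. Cyp4b1 was next at 232 ± 73.4 CPM per kb, then the CAR target gene Cyp2b10 at 153 ± 61.4, Cyp2e1 at 51.5 ± 73.0 and Cyp2s1, an epithelial P450, at 25.2 ± 9.0. Over the 11 control lungs without male 68, Cyp4b1 ranged from 374 to 664 CPM, Cyp2b10 from 210.5 to 532 CPM and Cyp2s1 from 71.8 to 184 CPM.

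Of the remaining tissues, skin had the highest mean for 11 members, bone marrow for 3, spleen for 2 and subscapular fat for 1. Skin expressed Cyp2b19, a keratinocyte epoxygenase gene, at 72.3 ± 24.0 CPM per kb (SD, n = 12), Cyp2j6 at 19.8 ± 4.5 and Cyp4f39, which hydroxylates the very long fatty acids of the skin barrier, at 18.3 ± 6.6. Skin held 96.1% of the summed tissue means of Cyp2b19, 97.5% of those of Cyp2w1 and 88.3% of those of Cyp4f39. Bone marrow was led by Cyp4f18, a leukotriene B4 hydroxylase gene of neutrophils, at 57.3 ± 9.2 CPM per kb. Cyp4f16 followed at 5.7 ± 1.3 and Cyp4f13 at 4.8 ± 1.5. Spleen had Cyp4f18 at 25.0 ± 4.0, Cyp1b1, an oestrogen and arene hydroxylase gene, at 14.3 ± 3.1 and Cyp4f16 at 10.3 ± 2.1.

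Both fat depots had the same 3 leading members. In gonadal fat Cyp2e1 stood at 205 ± 164 CPM per kb (SD, n = 12), Cyp4b1 at 30.2 ± 10.0 and the fatty acid hydroxylase gene Cyp4v3 at 25.1 ± 5.8. In subscapular fat the values were 55.7 ± 68.5, 25.9 ± 10.6 and 16.4 ± 7.0. Heart was low throughout, with Cyp4b1 at 11.2 ± 2.7, Cyp2e1 at 10.9 ± 28.8 and Cyp2d22 at 6.3 ± 3.4. The heart mean of Cyp2e1 rested on control female 22, at 220.2 CPM, where the 6 adipocyte markers summed to 7264 CPM, and without that library Cyp2e1 ranged from 0.6 to 12.5 CPM.

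Tissue contrasts in the control mice were fitted with edgeR's quasi-likelihood test over 17968 features. Each tissue was set against the mean log2 level of the other 8, and a gene was called at an adjusted p under 0.05. Tissues with hardly any counts pull that mean down, so a higher call need not mean a level above the average CPM elsewhere. Cyp2j11 was called higher in gonadal fat (0.40 ± 0.14, SE), although kidney held 99.7% of its summed tissue means. A gene could pass the low count filter through 1 tissue alone, so the counts are descriptions. Of the 48 members that passed, 40 were higher and 5 lower in liver, where 64% of all tested features were called. In kidney 22 were higher and 9 lower (59.7% of all features called), and in bone marrow 3 were higher and 33 lower (79.6%). In skin 8 were higher and 11 lower (64.5%), in spleen 4 and 19 (65.4%), in gonadal fat 22 and 3 (54.4%), in subscapular fat 10 and 5 (51.2%) and in heart 4 and 12 (61%). The balance of directions depended on the tool. Over the 9 tissues 98 of 244 edgeR calls and 216 of 324 limma-voom calls were lower. Without the libraries in doubt 99 of 247 edgeR calls were lower. In the edgeR fits many members with hardly any counts in a tissue had an SE far larger than the estimate. Examples were Cyp2d9 in heart (-4.61 ± 4610912.68) and Cyp2a5 in spleen (-4.25 ± 4251137.37). Such members could not be called lower, so the edgeR counts of lower members leave them out. The higher and lower calls by limma-voom were 20 and 22 in kidney, 10 and 14 in gonadal fat, 6 and 25 in subscapular fat, 2 and 36 in heart, 8 and 26 in skin, 4 and 40 in spleen, 3 and 44 in bone marrow and 38 and 5 in liver.

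The 22 higher members in gonadal fat included genes that are highest in liver, such as Cyp2c29 (1.01 ± 0.38, SE), Cyp2d10 (1.31 ± 0.38) and Cyp3a11 (0.87 ± 0.38). The 8 hepatocyte markers summed to 29.1 to 2879 CPM in control gonadal fat with a median of 193.7. Cyp2c29 stood at 45.1, 35.4 and 17.2 CPM in control males 37, 55 and 45, which had the highest sums, and at 0 to 4.28 CPM in the other 9 control mice. The part of these markers in the calls was not tested.

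Lung had 33 higher and 1 lower among the same 48 members (55.9% of all features called). Its largest log2 differences were 8.20 ± 0.20 (SE) for Cyp2f2, 7.58 ± 0.21 for Cyp2b10 and 4.60 ± 0.18 for Cyp2s1. The count of 34 called in control lungs was 14 in the anti-PAPP-A mice and 21 with limma-voom (17 higher and 4 lower). The 8 hepatocyte markers summed to 51.3 to 3941 CPM in control lungs with a median of 830.0, and to 36.7 to 733 CPM in anti-PAPP-A lungs with a median of 98.9. Their part in the low lung levels of liver-type members such as Cyp2c29 and Cyp3a11 was not tested.

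Liver and kidney, the 2 organs with the most P450 RNA, were compared directly in the control mice. Of the 48 members tested, 33 were higher in liver and 7 in kidney (edgeR, adjusted p under 0.05), against 47.9% of all 17968 features called. The liver-high genes included Cyp2d10 (log2 difference 12.59 ± 0.58, SE), Cyp2c29 (11.27 ± 0.61), Cyp3a13 (7.43 ± 0.33) and Cyp2e1 (3.19 ± 0.61). The 7 that were higher in kidney were Cyp2j11 (-10.12 ± 0.34), Cyp2d12 (-7.42 ± 0.27), Cyp4b1 (-5.71 ± 0.36), Cyp4a31 (-4.34 ± 0.25), Cyp1b1 (-3.77 ± 0.39), Cyp2s1 (-3.12 ± 0.47) and Cyp4f16 (-0.79 ± 0.23). Cyp2j5 (-0.42 ± 0.33, adjusted p = 0.32) and Cyp4a10 (0.45 ± 0.29, adjusted p = 0.204) did not pass.

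Many members differed between females and males in liver and kidney. In each tissue the 11 females were compared with the 11 males, with treatment as covariate. In liver 28 of 47 tested members were called, 13 higher in females and 15 higher in males, against 27% of the 9988 features tested (14.6% higher and 12.4% lower in females). In kidney 15 of 25 were called, 7 higher in females and 8 in males, against 24.9% of 12626 features (12.7% and 12.2%). A gene present in 1 sex only passes the filter through that sex, so these shares describe the members and were not tested as a group.

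**Figure D2:**
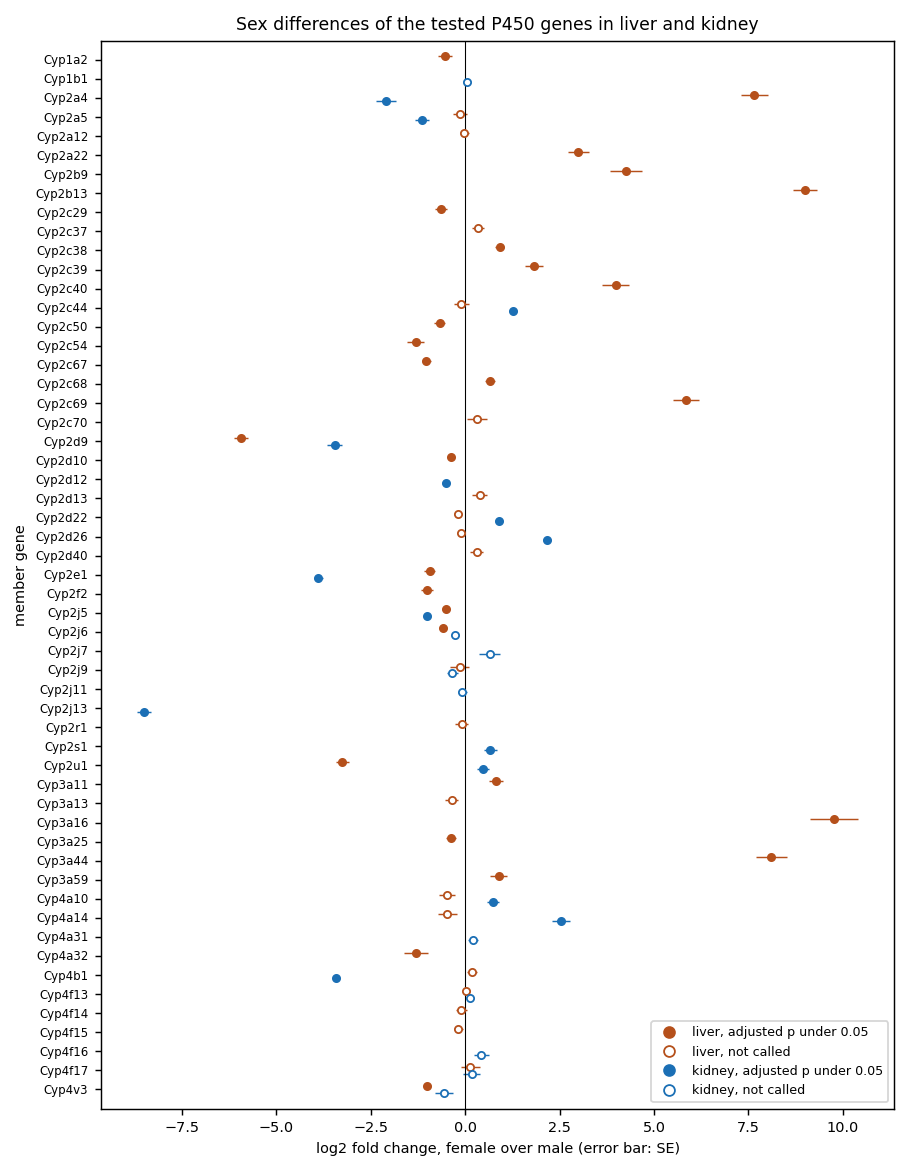
Log2 fold change of females over males (x axis, error bars SE, edgeR) for every member tested in liver (orange) or kidney (blue), with filled points where the adjusted p was under 0.05. Cyp2a4 lies at 7.66 in liver and at -2.09 in kidney, and Cyp2j13 lies farthest left, at -8.50 in kidney. For Cyp2b13 and Cyp3a16 the males held 1 and 0 counts, so the plotted size depends on the model.

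The female-high liver genes came from the 2A, 2B, 2C and 3A subfamilies, which hydroxylate steroids and drugs. Cyp2b13 stood at 60.7 to 173 CPM in female livers with a median of 93.2, and 10 of the 11 male livers had 0 counts. The single count of Cyp2b13 in males put the ratio of summed counts at 1320, with an exact counting interval of 236 to 52200. Cyp3a16 stood at 16.8 to 196 CPM in females with a median of 92.3 and had 0 counts in all 11 males, which made it at least 506-fold higher in females when the males were set to 3 counts in sum. Cyp3a44 ran from 46.9 to 408 CPM in females with a median of 103, against at most 1.37 CPM in males. Neither sex overlapped the other in any of these 3 genes. Of their windows 27.3% in Cyp2b13, 10.7% in Cyp3a16 and 26.5% in Cyp3a44 occur in other genes, in Cyp3a44 mostly in Cyp3a41a (11.5%) and Cyp3a63-ps (10.6%), which are not members.

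Cyp2a4 ran from 209 to 643 CPM in female livers with a median of 493, and from 0 to 9.44 CPM in male livers with a median of 0.89. Its log2 fold change was 7.66 ± 0.37 (SE, edgeR, adjusted p = 3.24e-14), and it was higher in 11 of 11 females than in any male. Its close copy Cyp2a5, the coumarin 7-hydroxylase gene, did not pass at -0.14 ± 0.19 (edgeR adjusted p = 0.61). Cyp2a5 stood at 119 to 517 CPM in females and 163 to 296 CPM in males. Of the windows of Cyp2a4, 36.1% also occur in Cyp2a5. The sequences upstream of these copies are nearly the same, as 120 bases that align without gaps show (from 120 bases before the annotated start in Cyp2a4 and 121 in Cyp2a5), in lower case with capitals at the 3 bases that differ (RefSeq, GRCm38.p6, plus strand, chr7:26307072-26307191 and chr7:26835218-26835337).
Cyp2a4: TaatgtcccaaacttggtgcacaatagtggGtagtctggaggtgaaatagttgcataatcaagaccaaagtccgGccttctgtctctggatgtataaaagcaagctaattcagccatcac
Cyp2a5: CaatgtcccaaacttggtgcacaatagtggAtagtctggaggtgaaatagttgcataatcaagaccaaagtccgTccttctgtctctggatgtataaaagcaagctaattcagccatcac
Over the 249 upstream bases that could be compared, 4 differed, an identity of 98.4%.

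Cyp2b9 joined Cyp2b13 in being female-high, at 294 to 502 CPM in female livers with a median of 373 and 0 to 105 CPM in male livers with a median of 6.83. The sexes did not overlap, and the log2 fold change was 4.26 ± 0.43 (SE, edgeR, adjusted p = 4.25e-08). The 120 bases before the annotated start are identical in the 2 genes (plus strand, chr7:26173289-26173408 for Cyp2b9 and chr7:26061375-26061494 for Cyp2b13), so 1 line stands for both, all in lower case.
Cyp2b9: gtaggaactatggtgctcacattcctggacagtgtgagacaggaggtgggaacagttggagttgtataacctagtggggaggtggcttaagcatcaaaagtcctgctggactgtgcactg
Over 250 bases they differ at 2, an identity of 99.2%, while their transcripts share only 10.8% of windows. Cyp2b10, the CAR target of this subfamily, had too few counts in liver to be tested (69 in females and 24 in males).

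Among the 2C genes, Cyp2c69 ran from 418 to 1572 CPM in female livers with a median of 682 and from 0 to 42.0 CPM in male livers with a median of 10.0. Cyp2c40 ran from 265 to 654 CPM in females with a median of 481 and from 5.03 to 107 CPM in males with a median of 20.5. All 11 females lay above all 11 males in both genes, with log2 fold changes of 5.85 ± 0.35 (SE, edgeR, adjusted p = 2.34e-12) and 3.98 ± 0.35 (adjusted p = 3.07e-09). The next copies in the row differed from them. Cyp2c68 was higher in females by 0.65 ± 0.13 (adjusted p = 0.000613), and Cyp2c67 was higher in males at -1.03 ± 0.12 (adjusted p = 2.65e-07). Of the windows of Cyp2c40, 42.1% also occur in Cyp2c69, and the stretch of 120 bases upstream that aligns between them differs at 2 bases, in capitals (minus strand, chr19:39812815-39812934 and chr19:39886800-39886919).
Cyp2c40: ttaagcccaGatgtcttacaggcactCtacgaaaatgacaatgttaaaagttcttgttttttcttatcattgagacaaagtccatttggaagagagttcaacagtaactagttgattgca
Cyp2c69: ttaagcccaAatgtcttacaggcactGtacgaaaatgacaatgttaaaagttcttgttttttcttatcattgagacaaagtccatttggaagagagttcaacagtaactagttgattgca
In Cyp2c40 the printed stretch ends 1 base before the annotated start and in Cyp2c69 31 bases before it. The STAT5 motif TTCNNNGAA, which reads the same on both strands, occurs in the 250 upstream bases of 4 of 60 members with a sequence (6.7%; Cyp2j11, Cyp2j12, Cyp4b1 and Cyp4f13) and of 7.1% of all 27025 genes, and in none of the genes printed here.

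The other female-high liver members were Cyp2a22 (log2 fold change 3.00 ± 0.29, SE), Cyp2c39 (1.82 ± 0.24), Cyp2c38 (0.92 ± 0.12), Cyp3a59 (0.89 ± 0.23) and Cyp3a11 (0.82 ± 0.18), the main drug-metabolising CYP3A gene of mouse liver. Their adjusted p-values by edgeR's quasi-likelihood test ran from 2.25e-08 for Cyp2a22 to 0.00665 for Cyp3a59. With Cyp2b13, Cyp3a16, Cyp3a44, Cyp2a4, Cyp2b9, Cyp2c69, Cyp2c40 and Cyp2c68 they make up the 13.

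Male-high liver genes were led by Cyp2d9, the testosterone 16alpha-hydroxylase gene. It ran from 587 to 952 CPM in male livers with a median of 790.2 and from 3.30 to 23.1 CPM in female livers with a median of 14.6. The sexes did not overlap, and the log2 fold change was -5.94 ± 0.18 (SE, edgeR, adjusted p = 1.29e-18). Cyp2u1, a fatty acid hydroxylase gene, ran from 46.4 to 67.8 CPM in males and from 0 to 9.39 CPM in females (-3.25 ± 0.17, adjusted p = 9.94e-14), again without overlap. The next 6 by size were smaller, from -1.31 to -0.94, and were Cyp2c54, Cyp4a32, Cyp2c67, Cyp2f2, Cyp4v3 and Cyp2e1. Cyp2e1 ran from 3736 to 5749 CPM in males and from 1789 to 4074 CPM in females, with overlapping ranges (-0.94 ± 0.14, adjusted p = 2.70e-05).

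The remaining male-high calls in liver were Cyp2c50 (-0.68 ± 0.14, SE), Cyp2c29 (-0.65 ± 0.16), Cyp2j6 (-0.59 ± 0.11), the caffeine-oxidising Cyp1a2 (-0.53 ± 0.19), Cyp2j5 (-0.52 ± 0.10), Cyp3a25 (-0.38 ± 0.14) and Cyp2d10 (-0.37 ± 0.08). The PPARalpha targets Cyp4a10 (-0.48 ± 0.22, edgeR adjusted p = 0.106) and Cyp4a14 (-0.47 ± 0.24, adjusted p = 0.154) did not pass. Nor did Cyp2r1, the vitamin D 25-hydroxylase gene (-0.09 ± 0.17, adjusted p = 0.9), Cyp3a13 (-0.36 ± 0.17, adjusted p = 0.115) or Cyp4b1 (0.18 ± 0.13, adjusted p = 0.32). Cyp2c39 was too low to be tested in 9 of the 22 fits that left out 1 mouse and was called in the other 13. With 1 mouse left out in turn, Cyp3a25 was not called in 16 and Cyp1a2 in 12 of 22 fits (adjusted p up to 0.0805 and 0.0788).

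**Figure D3:**
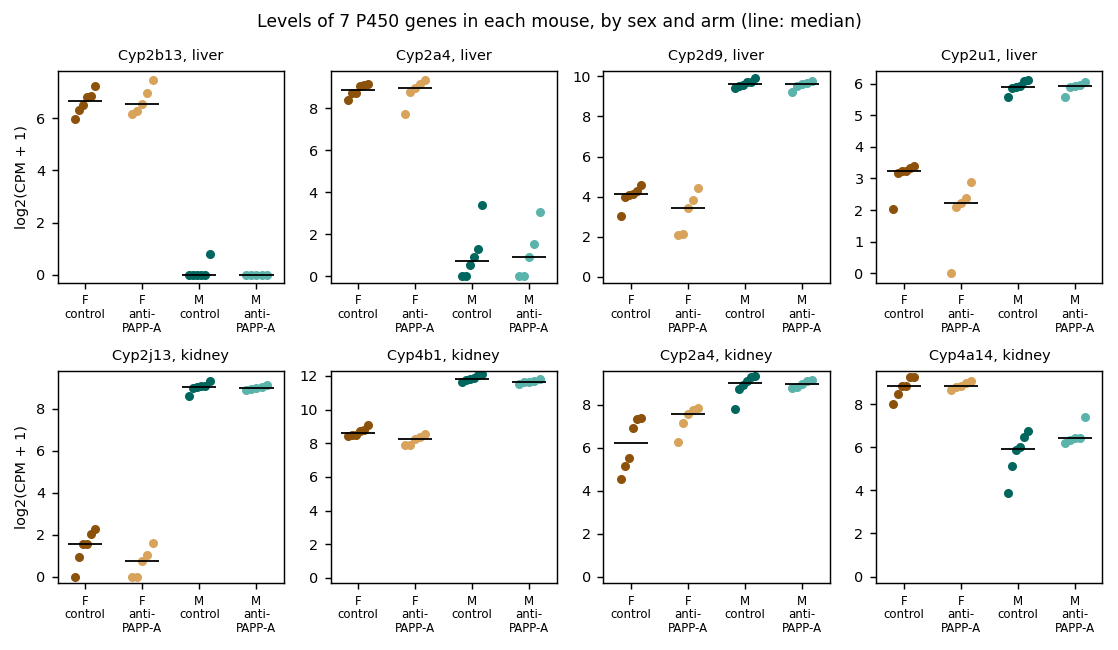
Level of 7 members in each mouse as log2(CPM + 1), by sex (F, M) and arm, 1 panel per gene and tissue (upper row liver, lower row kidney), with a line at the group median. Cyp2b13 and Cyp2a4 sit high in female livers, Cyp2d9 and Cyp2u1 high in male livers, and in kidney Cyp2j13, Cyp4b1 and Cyp2a4 are higher in males and Cyp4a14 in females.

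In kidney 8 members were higher in males, of which Cyp2e1, Cyp2d9 and Cyp2j5 were also higher in male liver. Cyp2j13 ran from 396 to 650 CPM in male kidneys with a median of 524 and from 0 to 3.78 CPM in female kidneys with a median of 1.02. The summed counts gave a ratio of 343 (exact counting interval 236 to 522), and the log2 fold change was -8.50 ± 0.19 (SE, edgeR, adjusted p = 1.26e-21). Cyp4b1 ran from 2979 to 4353 CPM in males with a median of 3477 and from 235 to 538 CPM in females with a median of 354 (-3.41 ± 0.10, adjusted p = 1.13e-18). In neither gene did the sexes overlap, with 11 of 11 males above every female.

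Cyp2e1 ran from 1077 to 1681 CPM in male kidneys with a median of 1323 and from 65.2 to 127 CPM in female kidneys with a median of 98.9 (-3.89 ± 0.12, SE, edgeR adjusted p = 1.48e-18). Cyp2d9 ran from 105 to 164 CPM in males and from 4.77 to 27.0 CPM in females (-3.46 ± 0.19, adjusted p = 1.47e-13). Both were separate between the sexes. Cyp2a4 ran from 219 to 642 CPM in males and from 22.2 to 226 CPM in females (-2.09 ± 0.27, adjusted p = 2.00e-06), with 1 male, control mouse 37, inside the female range. Cyp2a5 (-1.15 ± 0.18), Cyp2j5 (-1.0 ± 0.10) and Cyp2d12 (-0.52 ± 0.10) were also higher in males (adjusted p of 2.34e-05, 4.57e-08 and 0.000481 by edgeR).

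The 7 female-high kidney members were led by Cyp4a14, a fatty acid omega-hydroxylase gene that ran from 255 to 617 CPM in females with a median of 460 and from 13.8 to 168 CPM in males with a median of 81.0 (2.53 ± 0.24, SE, edgeR adjusted p = 9.23e-09). Cyp2d26 ran from 149 to 246 CPM in females and from 27.7 to 59.5 CPM in males (2.17 ± 0.10, adjusted p = 6.41e-15). Females lay above males throughout in both genes. Cyp2c44, an arachidonic acid epoxygenase gene (1.27 ± 0.11), Cyp2d22 (0.89 ± 0.11), Cyp4a10 (0.74 ± 0.16), Cyp2s1 (0.67 ± 0.18) and Cyp2u1 (0.47 ± 0.17) completed the set. Cyp2u1 was near the threshold (adjusted p = 0.0444 by edgeR) and was not called in 14 of 22 fits that left out 1 mouse (adjusted p up to 0.151). Cyp2j11, a kidney gene by level, did not pass (-0.08 ± 0.12, adjusted p = 0.692).

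Whether the sex difference itself differed between the 2 organs was tested in 1 edgeR fit over the liver and kidney libraries of all 22 mice. Of 55 members tested, 14 were called, 7 in each direction, against 11% of 13768 features (5.64% above 0 and 5.35% below), and with the mouse as a replicate block 16 of 56 were called. Cyp2j13, Cyp2b13, Cyp3a16, Cyp3a44 and Cyp2a22, among others, had an SE far larger than the estimate (8.5 ± 8504272.69 for Cyp2j13). The fit could therefore not assess these members, and their lack of a call says nothing about the 2 organs. Cyp2a4 turned round, being higher in females in liver and higher in males in kidney. Cyp2u1 turned round the other way, being higher in males in liver and, near the threshold, in females in kidney. Cyp2e1 and Cyp2d9 were male-high in both organs, Cyp2e1 by more in kidney and Cyp2d9 by more in liver. Cyp4b1 and Cyp4a14 differed between the sexes in kidney and did not pass in liver, and the test of the difference passed for both.

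Outside liver and kidney few members differed by sex. In gonadal fat 2 of 13 were called (14.4% of 12951 features, 6.07% higher and 8.35% lower in females). Cyp1b1 was higher in males, at 45.1 to 162 CPM against 12.9 to 61.1 CPM in females (-1.46 ± 0.21, SE, edgeR adjusted p = 0.000131), and Cyp2s1 was higher in females, at 4.29 to 35.7 CPM against 1.02 to 13.4 CPM in males (1.53 ± 0.33, adjusted p = 0.00341). Without male 58 both passed, at -1.54 ± 0.20 and 1.42 ± 0.31. The ranges of the sexes overlapped in both. In subscapular fat 2 of 11 were called (15.4% of 12230 features, 6.18% higher and 9.17% lower in females), both higher in males. They were Cyp2u1 (-1.72 ± 0.43, adjusted p = 0.0146) and Cyp2j6 (-0.68 ± 0.22, adjusted p = 0.0397). In the same depot the 5 skeletal muscle markers summed to 3.5 to 65326 CPM, with medians of 8069 CPM in control females, 1550.0 in control males, 16842 in treated females and 6632 in treated males. The part of these markers was not tested. With the control mice alone neither gene passed (adjusted p of 0.121 and 0.208). Cyp2j6 also missed the threshold in 12 of 22 fits without 1 mouse (adjusted p up to 0.0823).

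In the other 5 tissues edgeR called 0 members by sex, of 6 in bone marrow (0.659% of all features called, 0.304% higher and 0.355% lower in females), 9 in heart (0.203%, 0.0648% and 0.138%), 20 in lung (0.107%, 0.0785% and 0.0285%), 13 in skin (0.338%, 0.133% and 0.204%) and 7 in spleen (3.99%, 2.11% and 1.88%). At an unadjusted p under 0.05 there were 1, 1, 6, 2 and 2 of them, against 13.5%, 10.2%, 9.55%, 9.45% and 18.3% of all features. In spleen Cyp4f16 was called only without male 68 or male 71 (adjusted p down to 0.039). Because these tissues were fitted apart, a difference in sex effect between them and liver was not tested.

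The antibody was compared with control in each tissue with sex as covariate. By edgeR 0 of 151 tests of members passed over the 9 tissues (16 at an unadjusted p under 0.05, or 10.6%, against 4.61% of 112288 tests of all features), and DESeq2 called 0 of 144. The share of features at that p was 6.94% in bone marrow, 5.07% in gonadal fat, 2.92% in heart and 2.52% in subscapular fat, where 0 members had such a p. The members tested numbered 47 in liver, 25 in kidney, 20 in lung, 13 each in gonadal fat and skin, 11 in subscapular fat, 9 in heart, 7 in spleen and 6 in bone marrow. All features were called at 0% in every tissue other than bone marrow, where 0.00724% were.

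**Figure D4:**
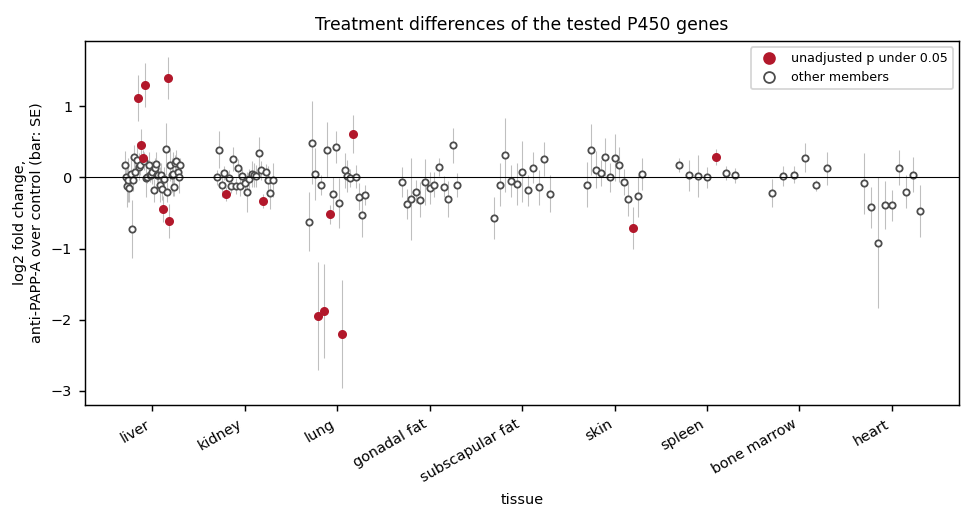
Log2 fold change of anti-PAPP-A over control mice (y axis, bars SE, edgeR with sex as covariate) for every member tested in each of the 9 tissues, with red points where the unadjusted p was under 0.05. None passed the adjusted threshold. Red points number 7 of 47 in liver and 5 of 20 in lung, where they run from -0.61 to 1.40 and from -2.20 to 0.61.

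In liver 7 of 47 members had an unadjusted p under 0.05 for treatment (359 of 9988 features, 3.59%). Of these Cyp3a44 (1.40 ± 0.29, SE), Cyp2c69 (1.30 ± 0.31) and Cyp2c40 (1.12 ± 0.32) were female-high genes with higher estimates in treated mice. Cyp3a59 (-0.61 ± 0.24) and Cyp3a11 (-0.44 ± 0.18), also female-high, had lower ones. The male-high Cyp2c54 (0.46 ± 0.22) and Cyp2c67 (0.28 ± 0.11) had higher ones. A link between these directions and the sex difference was not tested. None passed (edgeR adjusted p of 0.703 or above). The median over the 47 members was 0.05, against 0.01 over all genes.

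In female livers Cyp3a44 stood at 46.9, 86.7, 94.5, 96.8, 103 and 104 CPM in controls and at 56.3, 161, 221, 300.1 and 408 CPM in treated mice. All treated females other than mouse 9, at 56.3 CPM, lay above every control, and mouse 9 lay below all controls but 1. In male livers the gene was at or near 0 in both arms. Without mouse 9 the log2 fold change was 1.61 and passed (edgeR adjusted p = 0.00682), and with no low count filter it also passed (1.41 ± 0.26, adjusted p = 0.0469).

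Cyp2c40 and Cyp2c69 separated the arms in male livers. Cyp2c40 stood at 5.03, 8.90, 9.53, 11.5, 14.1 and 20.5 CPM in the 6 control males and at 23.7, 45.9, 66.0, 83.4 and 107 CPM in the 5 treated males. Cyp2c69 stood at 0, 2.12, 2.82, 3.56, 4.31 and 10.0 CPM in control males and at 13.3, 22.5, 26.3, 29.4 and 42.0 CPM in treated males. In both genes every treated male was above every control male, and every male stayed below every female. These were the only 2 of 55 members with a mean of at least 1 CPM for which the arms did not overlap in male liver, against 21 of 17808 features (0.118%) that were higher and 59 (0.331%) that were lower in treated males without overlap. In female liver there were 0 members without overlap, against 24 (0.135%) and 35 (0.197%) features.

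Females showed no such separation, with Cyp2c40 at 265 to 559 CPM in controls and 401 to 654 CPM in treated mice. In fits of 1 sex the log2 fold change of Cyp2c40 was 2.50 ± 0.37 (SE) in males (edgeR adjusted p = 0.0596) and 0.11 ± 0.22 in females (adjusted p = 1), and that of Cyp2c69 was 2.71 ± 0.47 (adjusted p = 0.182) and 0.62 ± 0.25 (adjusted p = 1). Since these copies share reads with Cyp2c67 and Cyp2c68, the 4 genes were also summed. The sum was 438 to 705.0 CPM with a median of 627 in control males and 705.1 to 1041 CPM with a median of 746 in treated males. The highest control and the lowest treated male were nearly equal, so the sum did not clearly separate the arms.

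Cyp2b9 went the other way in males. It stood at 3.18, 21.7, 22.3, 23.3, 23.7 and 105 CPM in the 6 control males and at 0, 1.46, 2.97, 6.36 and 6.83 CPM in the 5 treated males. All treated males lay below the control males apart from control mouse 45, at 3.18 CPM, and the highest control, mouse 68, was far above the rest. In females it was at 294 to 502 CPM in controls and 295 to 484 CPM in treated mice. The log2 fold change was -3.06 ± 0.77 (SE) in males alone (edgeR adjusted p = 1) and 0.19 ± 0.17 in females alone (adjusted p = 1).

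**Figure D5:**
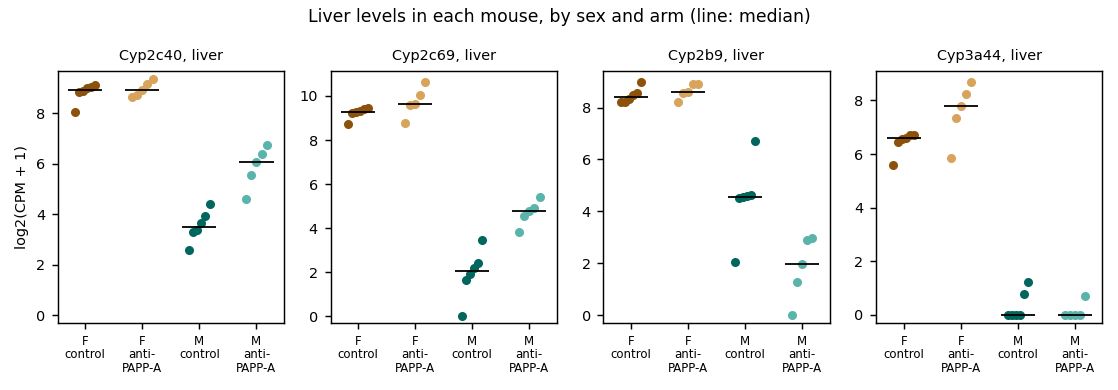
Liver level of Cyp2c40, Cyp2c69, Cyp2b9 and Cyp3a44 in each mouse as log2(CPM + 1), by sex (F, M) and arm, with a line at the group median. In males Cyp2c40 and Cyp2c69 are higher in every treated mouse than in any control, Cyp2b9 is lower in treated mice apart from 1 low control, and Cyp3a44 is at or near 0.

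The sex by treatment term, the treatment effect in females minus that in males, was called by edgeR for 0 of 161 member tests (13 at an unadjusted p under 0.05), and for 0% of all features in each tissue. At the unadjusted p these were 4 of 47 in liver (3.38% of features), 3 of 25 in kidney (4.21%), 3 of 11 in heart (6.13%), 2 of 21 in lung (7.77%) and 1 of 14 in gonadal fat (2.54%), and 0 in bone marrow (4.41%), skin (2.67%), spleen (2.57%) and subscapular fat (1.66%). In liver Cyp2c40 had the smallest p, with a term of -2.39 ± 0.45 (SE, adjusted p = 0.202), followed by Cyp2b9 at 3.23 ± 0.72 (adjusted p = 0.746). Cyp2c69 was at -2.08 ± 0.55 (adjusted p = 1). DESeq2 called Cyp2c40 (-2.40 ± 0.46, adjusted p = 0.00182), as did edgeR without the low count filter (-2.35 ± 0.38, adjusted p = 0.00269), which also called Cyp2b9 (3.27 ± 0.55, adjusted p = 0.0035). Leaving out female control 4, male control 37 or treated male 56 likewise brought Cyp2c40 past the threshold (adjusted p down to 0.0196), while over all 22 such fits it ran up to 0.587. The call depends on the tool and on single mice. In kidney the members with the smallest p were Cyp2j6 (-0.50 ± 0.19) and Cyp2j13 (-1.28 ± 0.51), both with an adjusted p of 1. In heart Cyp2e1 had a term of -4.31 ± 1.61 (edgeR adjusted p = 0.765), and of -1.18 ± 1.04 without the 2 libraries in doubt, which include control female 22 with its 7264 CPM of adipocyte markers.

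In lung 5 of 20 members had an unadjusted p under 0.05 for treatment (961 of 14018 features, 6.86%), and none passed. Cyp2j6 was at -0.52 ± 0.14 (SE, edgeR adjusted p = 0.7), Cyp3a11 at -2.20 ± 0.76 (adjusted p = 0.7), Cyp2c29 at -1.95 ± 0.76 (adjusted p = 0.708), Cyp2e1 at -1.88 ± 0.66 (adjusted p = 0.7) and Cyp4f15 at 0.61 ± 0.27 (adjusted p = 0.724). The lung values of Cyp2e1 were 322, 379 and 409 CPM in control males 68, 37 and 61, and 7.60 to 49.6 CPM in the other control mice, against 9.20 to 59.7 CPM in treated mice. Apart from those 3 males the arms overlapped. In the same 3 libraries the hepatocyte markers summed to 2301, 1090 and 3941 CPM and the adipocyte markers to 9413, 3044 and 11.5 CPM, and their part in the result was not tested. Without male 68 the edgeR estimate for Cyp2e1 was -1.79 ± 0.64 (adjusted p = 0.848), and Cyp3a11 had too few counts to be tested.

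Cyp2f2 in lung was at 809 to 1965 CPM in control females and 1178 to 3175 CPM in treated females. In males it was at 11.4 to 1771 CPM in controls and 930.3 to 1716 CPM in treated mice. The arms overlapped in both sexes, and the club cell marker sum was 4.3 to 17734 CPM in controls and 5968 to 29344 CPM in treated mice.

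In kidney Cyp4b1 (-0.33 ± 0.10, SE) and Cyp2d12 (-0.23 ± 0.10) were the 2 of 25 members at an unadjusted p under 0.05 for treatment (4.12% of features), and on the other side the smallest p-values belonged to Cyp2d9 (0.26 ± 0.17) and Cyp2a4 (0.39 ± 0.26), with an edgeR adjusted p of 1 for all 4. Cyp4b1 was at 348 to 538 CPM in control and 235 to 367 CPM in treated females, and at 3133 to 4353 and 2979 to 3593 CPM in males. The arms overlapped in both sexes.

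In the remaining tissues the members with the smallest p were small differences. Skin had Cyp4f16 at -0.71 ± 0.30 (SE, and -0.70 ± 0.30 without the library in doubt) and spleen Cyp4f16 at 0.29 ± 0.11, the only members there at an unadjusted p under 0.05 (3.3% and 5.21% of features). In bone marrow Cyp4f18 was at -0.11 ± 0.08 and Cyp2r1 at -0.22 ± 0.20, in gonadal fat Cyp4f18 at 0.45 ± 0.24 and in subscapular fat Cyp1b1 at -0.57 ± 0.30. In heart Cyp2u1 was at -0.39 ± 0.22, and at -0.17 ± 0.18 without the 2 libraries in doubt. Over the 9 tissues the median treatment estimate of the tested members ran from -0.39 in heart, where 7 of 9 were below 0 and the median over all genes was 0.01, to 0.05 in liver and skin. Without its 2 libraries in doubt the heart median was -0.10, with 6 of 10 below 0.

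Genes that work with or control the P450s were counted in the same fits. By sex, 27% of all tested features were called in liver (14.6% higher and 12.4% lower in females) and 24.9% in kidney (12.7% and 12.2%). By sex in liver, 3 of the 5 electron-transfer and partner genes were called, all higher in males, namely Cyb5a (-0.77 ± 0.11, SE), Pgrmc1 (-0.77 ± 0.10) and Cyb5b (-0.40 ± 0.10), while the P450 reductase gene Por was at 0.41 ± 0.16 (edgeR adjusted p = 0.055). In kidney all 5 were called, with Cyb5a at -1.55 ± 0.10 and Por at -0.31 ± 0.09 higher in males and Pgrmc1 at 0.50 ± 0.08 higher in females. None of the 5 tested xenobiotic receptor genes was called by sex in liver, and 2 of 5 were higher in female kidney, with the PXR gene Nr1i2 at 0.99 ± 0.25.

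PPARalpha targets outside the families were mostly higher in males in liver, where 6 of 9 were called in that direction and 1, Pdk4, in the other (median -0.67, against 0.03 over all genes). In kidney 3 were higher in males and 2 in females. The shares over all features were again 27% in liver (14.6% higher and 12.4% lower in females) and 24.9% in kidney, and the short lists were not tested against them. Of the growth hormone and STAT5 genes 3 of 11 were higher in female liver, Cux2 (6.34 ± 0.34, SE), Socs2 (1.10 ± 0.26) and the prolactin receptor gene Prlr (0.98 ± 0.12), and 1 was higher in males, the growth hormone receptor gene Ghr (-0.68 ± 0.09). Of the liver transcription factor genes, Ppara and Cebpa were higher in males (-0.42 ± 0.13 and -0.50 ± 0.10). P450s of other families were split, with Cyp17a1 (1.51 ± 0.18) and Cyp39a1 (0.88 ± 0.21) higher in females and Cyp7b1 (-3.39 ± 0.20), Cyp8b1 (-0.68 ± 0.10) and Cyp27a1 (-0.31 ± 0.11) in males.

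For treatment, 0 genes of these lists were called by edgeR in liver or kidney. At an unadjusted p under 0.05 there were in liver 0 of 5 partner genes, 0 of 5 receptors, 0 of 2 AHR targets, 1 of 9 PPARalpha targets, 0 of 11 growth hormone genes, 0 of 9 liver regulators and 3 of 9 P450s of other families. In kidney the counts were 2 of 5, 1 of 5, 0 of 2, 1 of 9, 1 of 10, 0 of 5 and 1 of 8 in that order. Over all features the shares at that p were 3.59% in liver and 4.12% in kidney. Of the 9 sex-biased liver genes outside the P450s, which were all called by sex, 5 had an unadjusted p under 0.05 for treatment, all with higher estimates in treated mice. Among them were the female-high A1bg (0.90 ± 0.37, SE) and the male-high Hsd3b5 (1.14 ± 0.52), Slco1a1 (0.81 ± 0.35) and Serpina1e (0.86 ± 0.42), each with an adjusted p of 1. The median over the 11 growth hormone and STAT5 genes was 0.11, with Igf1 at 0.26 ± 0.13 and Socs2 at 0.39 ± 0.26.

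Members also differed in how much mice of 1 tissue, arm and sex varied. Among members with a mean of 5 CPM or more in all 4 groups, the SD of log2(CPM + 1) within groups had a median of 0.28 over 23 members in kidney, 0.38 over 40 in liver, 0.51 over 16 in lung and 0.97 over 13 in skin. Without the libraries in doubt it was 0.34 over 16 in lung and 0.65 over 14 in skin. In liver the widest were Cyp4a31 (0.88), Cyp2a22 (0.84) and Cyp4a32 (0.77). Cyp2e1 was the widest member in both fat depots, at 1.34 in gonadal and 1.39 in subscapular fat. In gonadal fat it ran from 272 to 1767 CPM in females with a median of 697 and from 9.15 to 1100.1 CPM in males with a median of 83.5, and it was not called by sex unless mouse 3, 18, 37 or 62 was left out (1.70 ± 0.59, edgeR adjusted p = 0.0563, down to 0.00242 in those fits, and 1.53 ± 0.56 without male 58). The 8 hepatocyte markers summed to 2879 CPM in gonadal fat of control male 37, the male with 1100.1 CPM of Cyp2e1, and its part was not tested.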

How the data were processed

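RNA-seq libraries (stranded total RNA, per the labels' protocols) of 9 tissues from 22 mice were analysed. The authors deposited whole-number counts per gene. FastQC 0.11.5, Salmon and the build mm10 are named in the submitters' processing notes. For the annotation, any filter and the step from estimates to whole numbers, the sources used here give nothing. Positions and exon lengths are from GENCODE vM21 on mm10, which held 72 of the 73 members, and promoter sequences are from RefSeq (GRCm38.p6), which held 60.

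Labels gave the groups, with a mouse as 1 replicate. On the deposited counts edgeR 4.0.16 was run (TMM, filterByExpr, quasi-likelihood F-test) in R 4.3.3, fitted on all features, with Benjamini-Hochberg adjustment and a threshold of 0.05, two-sided. SE is the log2 fold change divided by the root of F. Total counts were 4138419 to 19517950 per library. Intervals and floors cover counting error only. Whether mice shared cages or litters is not stated. Tissues of the same mouse are paired by animal. The mean correlation of members' deviations between liver and kidney of a mouse was 0.004 over 22 mice (-0.256 to 0.204).

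The members and gene lists were chosen with earlier results of these data known. Named members were those called for treatment or the 2 per direction with the smallest p in each tissue, up to 8 called per direction by sex in liver and kidney and 3 elsewhere, the 5 or 3 highest per kb in each tissue, and a list of well-known members. Other called members were named only to complete a count. The liver-arm overlaps, Cyp2c69 in the sex by treatment term and the 2C sum were chosen after values were seen. Alternatives were DESeq2 1.42.0, limma-voom (limma 3.58.1), RLE scaling, no low count filter, abundant features or doubtful libraries left out, each mouse left out, 1 sex or arm alone and the mouse as a block. The fits were tested on simulated data. Python 3.11.15 (pandas 2.3.3, numpy 2.4.6, scipy 1.17.1 and matplotlib 3.10.9) read the tables and drew the figures.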

Additional observations from a re-analysis of the deposited data

Results flagged for a closer look

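Among 72 groups of 5 or 6 mice, formed by sex and arm for 18 pairs of a member and a tissue, 12 held 1 mouse far from the others, where chance alone gives about 1 in 20. That rate assumes independent values with a normal spread, which CPM values of the same mice need not have, so an excess over it was not tested. Nor does the rate apply to groups otherwise at 0, in which any count sets a mouse apart. In male liver the high mice were control male 68 for Cyp2b9 (105.05 CPM, next 23.7) and Cyp2a4 (9.44 CPM, next 1.44), treated male 56 for Cyp2a4 (7.41 CPM, next 1.91), and control male 55 for Cyp2b13 (0.72 CPM) and treated male 70 for Cyp3a44 (0.64 CPM), both in groups otherwise at 0. In female liver the low mice were control female 22 for Cyp3a44 (46.89 CPM, next 86.7) and Cyp2c69 (417.56 CPM, next 599), and control female 4 for Cyp2c40 (264.81 CPM, next 457) and Cyp2u1 (3.1 CPM, next 7.96). Control female 18 was high for Cyp2a5 (516.75 CPM, next 222). Outside liver, treated male 58 was high for Cyp4a14 in kidney (167.96 CPM, next 86.5) and control female 3 for Cyp2e1 in lung (49.55 CPM, next 30.2).

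The sex difference of 14 members differed between liver and kidney by edgeR's test of the difference (female over male in liver minus the same in kidney, log2). Above 0 were Cyp2a4 (9.72), Cyp2c69 (5.83), Cyp2b9 (3.68), Cyp4b1 (3.55), Cyp2e1 (2.91), Cyp4f15 (1.92) and Cyp2a5 (0.97). Below 0 were Cyp2u1 (-3.77), Cyp4a14 (-3.03), Cyp2d9 (-2.53), Cyp2d26 (-2.32), Cyp2c44 (-1.42), Cyp4a10 (-1.27) and Cyp2d22 (-1.14).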

How the results depend on the processing

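Counts of called members per tissue held within 1.5 times under most alternatives, where a count of 0 that stayed at 0 was taken as held. For treatment and the sex by treatment term the main count was 0 in every tissue. By sex it was 0 in bone marrow, heart, lung, skin and spleen. For treatment, 1 member was called in liver with no low count filter, and 0 to 1 when 1 mouse was left out. For the sex by treatment term in liver DESeq2 called 1, no filter called 2, and leaving out 1 mouse called 0 to 1. By sex, gonadal fat went from 2 to 4 with DESeq2 and 11 with no filter (2 to 4 without 1 mouse), subscapular fat from 2 to 0 with control mice alone and 12 with no filter (1 to 2 without 1 mouse), lung from 0 to 1 with no filter, and spleen from 0 to 0 to 1 without 1 mouse. The sex counts without 1 mouse were 25 to 28 in liver and 14 to 16 in kidney. In the tissue contrasts anti-PAPP-A mice in place of control mice gave 14 in gonadal fat in place of 25 and 14 in lung in place of 34, and limma-voom gave 21 in lung, 38 in heart (16), 34 in skin (19), 44 in spleen (23) and 31 in subscapular fat (15). The cause was not tested.

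With the mouse as a replicate block the sex difference between liver and kidney was called for 16 of 56 members, the 14 and also Cyp2c40 and Cyp2b10, and liver against kidney for 50 of 59 in place of 40 of 48. DESeq2 called 21 of 55 for the former, and leaving out 1 mouse 14 to 15. The block changed no other called count by over 1.5 times, and no pairing exists between the arms, since no mouse was in both.

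Signs changed for small treatment estimates that were not called, for Cyp2r1 (0.07) and Cyp4v3 (-0.07) in bone marrow in females alone, Cyp4f16 in heart in males alone (-0.21; -0.05 to 0.10 without 1 mouse) and Cyp4f13 in spleen by DESeq2 (0.00) and in females alone (0.01), where it ran from -0.05 to 0.05 without 1 mouse. Depth limits genes such as Cyp2j13 in female kidney and Cyp3a44 in male liver, where few or 0 counts were seen.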
